A study of Mus musculus with 15 samples.

Results

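The genes described here are 10 genes of enteroendocrine cells, the hormone-secreting cells of the gut epithelium, taken by their symbols from 45804 genes of the mouse cecum. They encode hormones (Cck, Sst, Ghrl), proteins of the secretory granule (Chga, Chgb, Scg2, Scg5, Cpe) and transcription factors of the lineage (Neurog3, Neurod1). The cecum of 7 AIMD mice, whose microbiome was depleted with antibiotics, was compared with that of 8 vehicle mice. All were WT male mice of the C57BL/6 strain with a labelled age of 20 weeks. AIMD mice were gavaged with ampicillin, vancomycin, metronidazole, neomycin and the antifungal amphotericin B, and vehicle mice with water, 2 times a day for 30 days. Each mouse gave 1 library. Ceca were emptied, frozen and extracted, and the labels name no separation of mucosa from muscle, so the RNA is that of a mixed tissue. Mice were housed several to a cage, and the labels do not say which shared one.

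Enteroendocrine cells arise from crypt progenitors that switch on Neurog3 and then Neurod1. They store peptide hormones in dense-core granules, whose matrix holds the granins, and carboxypeptidase E (Cpe) trims the peptides after convertases have cut them. Enteric neurons carry dense-core granules too and can express Sst, Cck, Scg2 and Cpe. In bulk tissue, fewer cells of a type and less RNA per cell cannot be told apart.

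Expression is given as FPKM, reads per gene corrected for gene length and library depth, after division by a size factor per mouse. Reads counted on genes ranged from 8679679 to 18108586 in AIMD mice (median 11244643, n = 7) and from 4372423 to 14405949 in vehicle mice (median 7855371, n = 8), the lowest being vehicle replicate 8. This mouse also had the highest summed level of neuron, smooth muscle and small-intestine markers, and results that rest on it are given with and without it. In 13 circadian clock genes the mice lay in separate clusters, the lower one holding AIMD replicates 1 to 3 and vehicle replicates 1 to 4, and the higher one AIMD replicates 4 to 7 and vehicle replicates 5 to 8. Values within each cluster are given where they differ. The epithelial markers Epcam (1850 FPKM in AIMD and 1620 FPKM in vehicle mice, means) and Cdh1 and the colonic marker Car1 were abundant.

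The genes of the set moved in opposite directions. Cck and Chgb were higher in AIMD mice, Sst, Scg2 and Cpe were lower, Chga, Scg5 and Neurod1 did not pass the test, and Ghrl and Neurog3 were too low to be tested in the fit over all genes. Of the 8 genes that passed the filter (7 or more mice with an FPKM of 0.5 or more), 2 were called higher, where 19.4% of all 11971 tested genes were, and 3 were called lower, where 16.6% were (limma on log2(FPKM + 0.5), Benjamini-Hochberg adjusted p under 0.05). Without vehicle replicate 8 the same 2 and 3 genes were called, against 20.1% and 18.6% of all genes. The median log2 fold change of the 8 genes was 0.041, against 0.0066 over all tested genes. Because of the added 0.5, log2 fold changes of weakly expressed genes are understated. The plot of FPKM by mouse shows all 10 genes.

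**Figure D1:**
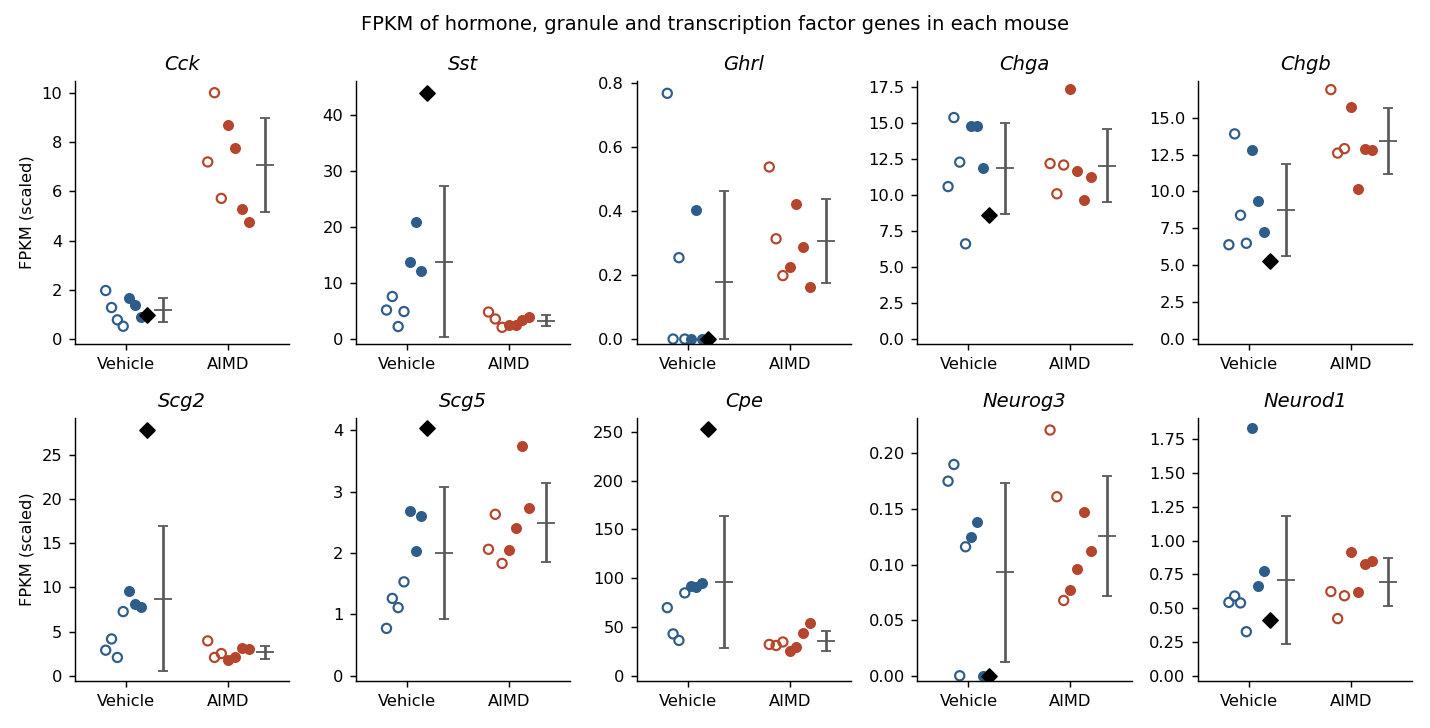
FPKM (linear axes starting at 0, 1 panel per gene) in each of 8 vehicle mice (blue) and 7 AIMD mice (red); open circles are mice of the lower clock cluster, filled circles mice of the higher one, and the black diamond is vehicle replicate 8. The grey dash and bar give the mean and SD, not drawn below 0. Cck is the panel whose groups are fully apart, and vehicle replicate 8 stands at the top for Sst (43.8), Scg2 (27.8), Scg5 (4.04) and Cpe (253).

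Cck, which encodes the satiety hormone cholecystokinin, lies on the minus strand of chromosome 9 (chr9:121489824-121495694, GRCm38). Its FPKM in AIMD mice ran from 4.77 through a median of 7.19 to 9.996, and in vehicle mice from 0.519 through 1.14 to 1.97. The groups did not overlap, and the lowest AIMD mouse stood well above the highest vehicle mouse. Among all tested genes, 5.26% had every AIMD mouse above every vehicle mouse. The AIMD mean was 5.94 times the vehicle mean. The log2 fold change, a difference of mean log2(FPKM + 0.5), was 2.18 (95% interval 1.77 to 2.58, limma adjusted p = 7.46e-07), and 31 genes rose more. The rise was 2.02 in the higher and 2.36 in the lower clock cluster, and 2.16 without vehicle replicate 8. These levels rest on few reads, 38 to 87 per AIMD mouse and 3 to 12 per vehicle mouse.

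Sst encodes somatostatin, which inhibits the release of many gut hormones, and lies on the minus strand of chromosome 16 (chr16:23889573-23890958). Its FPKM ran from 2.09 through a median of 3.40 to 4.82 in AIMD mice and from 2.23 through 9.85 to 43.8 in vehicle mice. The AIMD mice lay close together, whereas the vehicle mice spread widely, and 7 of 8 vehicle mice were above the highest AIMD mouse. The mean of vehicle mice was 4.21 times that of AIMD mice, or 2.90 times without vehicle replicate 8. The log2 fold change was -1.47 (95% interval -2.38 to -0.55, limma adjusted p = 0.0147) and, without that mouse, -1.17 (limma adjusted p = 0.0156).

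Sst in vehicle mice differed by clock cluster. Vehicle mice of the lower cluster had 2.23 to 7.58 FPKM and those of the higher cluster 12.1 to 43.8, while AIMD mice had 2.09 to 4.82 and 2.58 to 3.87. In the higher cluster, vehicle replicates 5, 7 and 8 also had small-intestine markers that summed to 1100, 1130 and 1970 FPKM. Vehicle replicate 6 had 3.91 FPKM, and vehicle mice of the lower cluster had at most 80.2 FPKM. The part of tissue mix in the difference between clusters was not tested. The log2 fold change was -2.51 in the higher cluster (limma adjusted p = 0.00242) and -0.41 in the lower one (limma adjusted p = 0.433). The difference between the clusters was -2.10 and did not pass adjustment over all genes (limma interaction, adjusted p = 0.953). No gene (0.0%) passed this limma interaction test. An unadjusted p under 0.05 was found for 534 of 11971 genes, no more than this threshold gives by chance. Sst, Scg2 and Scg5 were among them, 3 of the 8 tested genes of the set. Over the set, 3 genes were called lower (all genes: 9.47%) and 1 higher (11.2%) in the higher cluster alone, and 0 were called lower (7.08%) and 2 higher (8.65%) in the lower cluster alone.

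Ghrl encodes ghrelin, the hunger hormone made chiefly in the stomach (chr6:113716119-113719880, minus strand). In AIMD mice its FPKM ran from 0.163 through a median of 0.286 to 0.537, and 5 of 8 vehicle mice had no read while the highest reached 0.767. In all, 16 reads fell on it in AIMD mice and 6 in vehicle mice. A count of 0 allows up to 3 reads, which would be 0.418 to 1.29 FPKM in those 5 mice, so a difference was not detectable at this depth (exact permutation test, two-sided, p = 0.15).

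Chga and Chgb encode chromogranins A and B, the acidic matrix proteins used as general markers of endocrine cells. Chga (chr12:102554969-102565028, plus strand) ran from 9.65 through a median of 11.7 to 17.4 FPKM in AIMD mice and from 6.62 through 12.1 to 15.4 FPKM in vehicle mice. The ranges overlapped widely, with 2 vehicle mice below the lowest AIMD mouse and 1 AIMD mouse above the highest vehicle mouse. AIMD mice averaged 12.04 ± 2.54 (SD, n = 7) and vehicle mice 11.9 ± 3.14 (SD, n = 8). The log2 fold change was 0.043 with an interval of -0.32 to 0.41 (limma adjusted p = 0.865).

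Chgb (chr2:132781278-132795079, plus strand) was higher in AIMD mice. Its FPKM ran from 10.2 through a median of 12.9 to 16.9 in AIMD mice and from 5.28 through 7.81 to 13.9 in vehicle mice. Of the vehicle mice, 6 were below the lowest AIMD mouse, and replicates 2 and 5 lay among the AIMD mice. The AIMD mean was 1.54 times the vehicle mean, and the log2 fold change was 0.65 (95% interval 0.26 to 1.03, limma adjusted p = 0.0119). It was 0.56 without vehicle replicate 8 (limma adjusted p = 0.0179). It missed the threshold in each clock cluster alone, at 0.60 (limma adjusted p = 0.109) and 0.71 (limma adjusted p = 0.0811), and in an exact rank-sum test (adjusted p = 0.0574).

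The 2 chromogranins therefore differed in proportion within a mouse, a comparison chosen after the values were seen. Chgb FPKM divided by Chga FPKM was 1.14 ± 0.201 (SD, n = 7) in AIMD mice, from 0.874 to 1.39, and 0.736 ± 0.156 (SD, n = 8) in vehicle mice, from 0.603 to 0.981. The ranges overlapped slightly. The log2 ratio differed by 0.60 (two-sided exact permutation test, p = 0.00218, and p = 0.0035 without vehicle replicate 8). The pair was chosen on these same values, so these p-values are descriptive only.

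Scg2 encodes secretogranin II, the precursor of secretoneurin, and lies on the minus strand of chromosome 1 (chr1:79434669-79440120). Its FPKM ran from 1.75 through a median of 2.51 to 3.94 in AIMD mice and from 2.07 through 7.53 to 27.8 in vehicle mice. The 3 lowest vehicle mice, all of the lower clock cluster, lay in or just above the AIMD range. The mean of vehicle mice was 3.29 times that of AIMD mice, or 2.26 times without vehicle replicate 8. The log2 fold change was -1.21 (95% interval -1.99 to -0.42, limma adjusted p = 0.0184) and -0.92 without that mouse (limma adjusted p = 0.0158). An exact rank-sum test gave an adjusted p of 0.0574. As for Sst, the fall was -2.02 in the higher clock cluster (limma adjusted p = 0.00633), and the value was -0.38 in the lower one (limma adjusted p = 0.466), a difference of -1.64 that did not pass adjustment (limma interaction, adjusted p = 0.972).

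Cpe (chr8:64592542-64693054, minus strand) was the most abundant of the 10 genes in both groups. Its FPKM ran from 25.4 through a median of 32.1 to 54.4 in AIMD mice and from 36.2 through 88.1 to 253 in vehicle mice. Of the vehicle mice, 6 stood above the highest AIMD mouse. The mean of vehicle mice was 2.68 times as high, and 2.05 times without vehicle replicate 8. The log2 fold change was -1.21 (95% interval -1.86 to -0.57, limma adjusted p = 0.00595) and -0.98 without that mouse (limma adjusted p = 0.00349). It was -1.70 in the higher clock cluster (limma adjusted p = 0.0109) and -0.75 in the lower one (limma adjusted p = 0.0835). The difference between the clusters, -0.95, did not pass adjustment (limma interaction, adjusted p = 0.993).

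Scg5 encodes 7B2, a chaperone of the prohormone convertase Pcsk2 (chr2:113776362-113829121, minus strand). Its FPKM ran from 1.83 through a median of 2.40 to 3.74 in AIMD mice and from 0.773 through 1.78 to 4.04 in vehicle mice. The groups overlapped, and the log2 fold change was 0.34 (95% interval -0.14 to 0.83, limma adjusted p = 0.259). By clock cluster the vehicle mice again stood apart, with 0.772 to 1.53 FPKM in the lower and 2.04 to 4.04 in the higher cluster. In the lower cluster Scg5 was higher in AIMD mice by 0.69 (limma adjusted p = 0.0385), and in the higher cluster the value was -0.042 (limma adjusted p = 0.913). The difference between the clusters, -0.73, did not pass adjustment (limma interaction, adjusted p = 0.993).

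Neurod1 (chr2:79452521-79456751, minus strand) had low levels, from 0.423 through a median of 0.623 to 0.915 FPKM in AIMD mice and from 0.326 through 0.567 to 1.83 FPKM in vehicle mice. The ranges overlapped, and the highest value belonged to vehicle replicate 5. The log2 fold change was 0.038 (95% interval -0.35 to 0.42, limma adjusted p = 0.889). Neurog3, the factor that commits progenitors to the endocrine fate (chr10:62133090-62134763, plus strand), reached at most 0.221 FPKM in AIMD mice, with a median of 0.112, and at most 0.19 in vehicle mice, with a median of 0.12. With 19 and 11 reads in all, and 3 vehicle mice at 0, where 3 reads would be 0.261 to 0.442 FPKM, a difference was not detectable at this depth (exact permutation test, two-sided, p = 0.342).

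**Figure D2:**
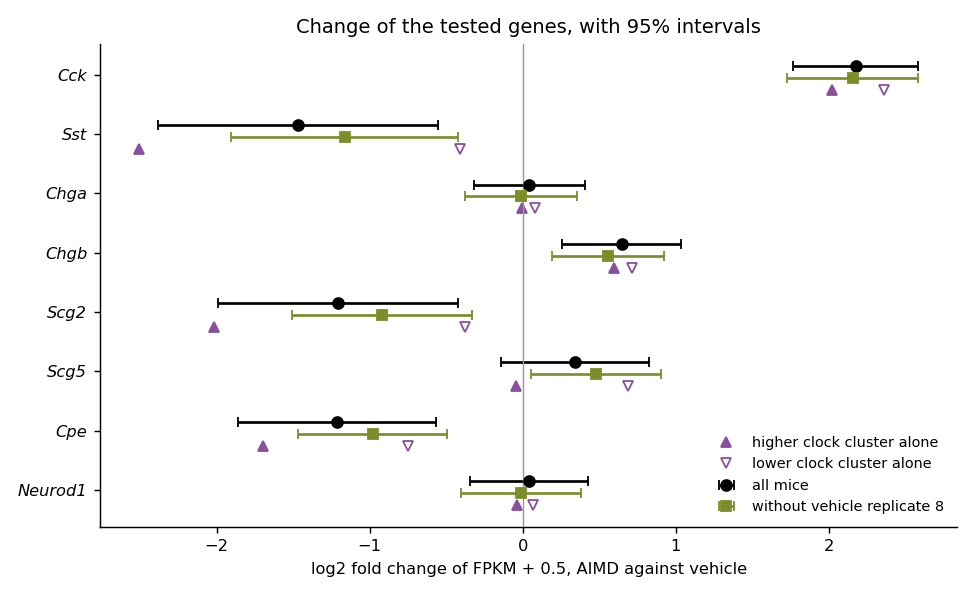
Log2 fold change of FPKM + 0.5, AIMD against vehicle, for the 8 tested genes: black circles with all 15 mice and green squares without vehicle replicate 8, both with 95% intervals from limma, and purple triangles (no intervals) within the higher (filled) and lower (open) clock cluster alone. Cck lies furthest to the right at 2.18, the intervals of Sst, Scg2 and Cpe lie left of 0 with and without vehicle replicate 8, and the triangles of Sst and Scg2 are the furthest apart.

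The order of the levels differed between the groups. By mean FPKM, per length of gene, AIMD mice ranked Cpe (35.7), Chgb (13.4), Chga (12.04), Cck (7.05), Sst (3.27), Scg2 (2.65), Scg5 (2.49), Neurod1 (0.693), Ghrl (0.306) and Neurog3 (0.126). Cpe, Chga, Cck, Scg5, Neurod1 and Ghrl were each above the next gene in all 7 mice, whereas Sst exceeded Scg2 in 6 mice, Chgb exceeded Chga in 5 and Scg2 exceeded Scg5 in 3. In vehicle mice Sst (13.8) came after Cpe (95.6), but without vehicle replicate 8 its mean was 9.51, below Chga at 12.3. Cck (1.19) was at place 7, below Scg5 (2.00). Chga exceeded Chgb in all 8 vehicle mice, but Sst exceeded Chga in only 3 and Chgb exceeded Scg2 in 5. Neighbours such as the last 2 pairs were not separated beyond the spread between mice.

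RefSeq promoters (GRCm38.p6, 300 bases from 250 before to 50 after each start) were found for 9 of the 10 genes, all but Cpe. They were searched on both strands for the cAMP response element TGACGTCA and its core TGACGT, which lies within it, and for TGCGTCA and CAGATG, letters chosen after the promoters had been seen. Stretches of 30 bases around the motif are shown, since members that fell and members that rose carry the same letters, with the motif in capitals, 5′ to 3′ on the strand of the gene.
Sst: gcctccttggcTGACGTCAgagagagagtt
Scg2: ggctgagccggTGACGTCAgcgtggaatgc
Chgb: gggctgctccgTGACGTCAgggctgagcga
Chga: gggcggtcctaTGACGTaatttcctgggtg
Scg5: aaggaggtaaaTGACGTtcataggggtcga
Cck: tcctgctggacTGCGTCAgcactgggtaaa

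The full element stood in Sst (chr16:23890874-23890903), Scg2 (chr1:79440076-79440105) and Chgb (chr2:132781559-132781588), that is in 3 of 9 genes, against 2.03% of 27025 genes with a promoter. Its first base lay at -48, -68 and -72 from the RefSeq start. These 3 stretches lie within the GENCODE M21 gene spans given above, which begin further upstream than the RefSeq starts. The core alone stood also in Chga (chr12:102554886-102554915, from -44) and Scg5 (chr2:113829248-113829277, from -175), and a further core of Scg5 lay on the opposite strand after the start. The core was in 8.37% of all genes with a promoter. TGCGTCA was in Cck (chr9:121495725-121495754, from -49) and Scg5, against 2.42% of genes, and CAGATG, an E-box, was in Cck and Ghrl, against 19.2%. Of the carriers of the full element, Sst and Scg2 were lower in AIMD mice and Chgb was higher. A match of letters is a description and says nothing about binding.

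Other genes of the same cells gave a mixed picture as well. Of 12 other hormone genes 7 were tested, and Gcg, Pyy, Insl5 and Nts were higher and secretin (Sct) lower, with a median log2 fold change of 1.28. Nts, for neurotensin, had 134 ± 31.3 FPKM (SD, n = 7) in AIMD mice, the highest of these there, against 60.0 ± 29.7 (SD, n = 8) in vehicle mice, where Sct was higher at 112 FPKM. Insl5, a peptide of colonic L cells, rose most, by 4.92 on the log2 scale. Sct fell by 0.81 on the log2 scale (limma adjusted p = 0.0136). Tac1 and Penk, also neuronal peptides, had log2 fold changes of -0.90 and -0.42 and did not pass the test. Their vehicle means were 6.11 and 6.06 FPKM, and vehicle replicate 8 held 19.1 and 21.2 FPKM.

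Of 19 other granule proteins 11 were tested, and 2 were higher and 2 lower, with a median of -0.24. Rab27a, a GTPase of granule docking, rose by 0.87 (limma adjusted p = 0.000171) and the convertase Pcsk1 by 0.76 (limma adjusted p = 0.00241). The vesicular monoamine transporter Slc18a2 fell by 1.12 (limma adjusted p = 0.00764) and the vesicle protein Vamp2, the most abundant of the list at 11.4 FPKM in AIMD and 16.6 FPKM in vehicle mice, fell by 0.50 (limma adjusted p = 0.0169). Slc18a2 had 0.219 to 0.542 FPKM in AIMD mice and 0.422 to 5.12 FPKM in vehicle mice. It passed the filter of 0.5 FPKM mainly through vehicle mice, which favoured a fall. Of 21 other transcription factors 6 were tested, and Foxa1 rose by 0.85 (limma adjusted p = 0.00073) while Foxa2 and Rfx3 fell by 1.10 and 0.28 (limma adjusted p = 0.00473 and 0.0483). Foxa2 and Foxa1, the latter the most abundant in AIMD mice (17.6 FPKM), are also expressed by other epithelial cells.

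None of 9 genes for the receptors of these hormones and the ghrelin-activating enzyme was expressed enough to be tested, and Sstr4 and Ghsr had no read in any mouse. Of 10 luminal sensors 2 were tested. Ffar2, which senses short-chain fatty acids, fell by 0.84 (limma adjusted p = 0.00976), and Ffar4, a receptor of long-chain fatty acids, had -0.46 (limma adjusted p = 0.0617), or -0.55 without vehicle replicate 8 (limma adjusted p = 0.0197). Of 3 tested genes of enterochromaffin cells, the serotonin-producing cells, Ddc fell by 0.71, and Tph1 (0.42) and Tac1 (-0.90) did not pass the test.

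**Figure D3:**
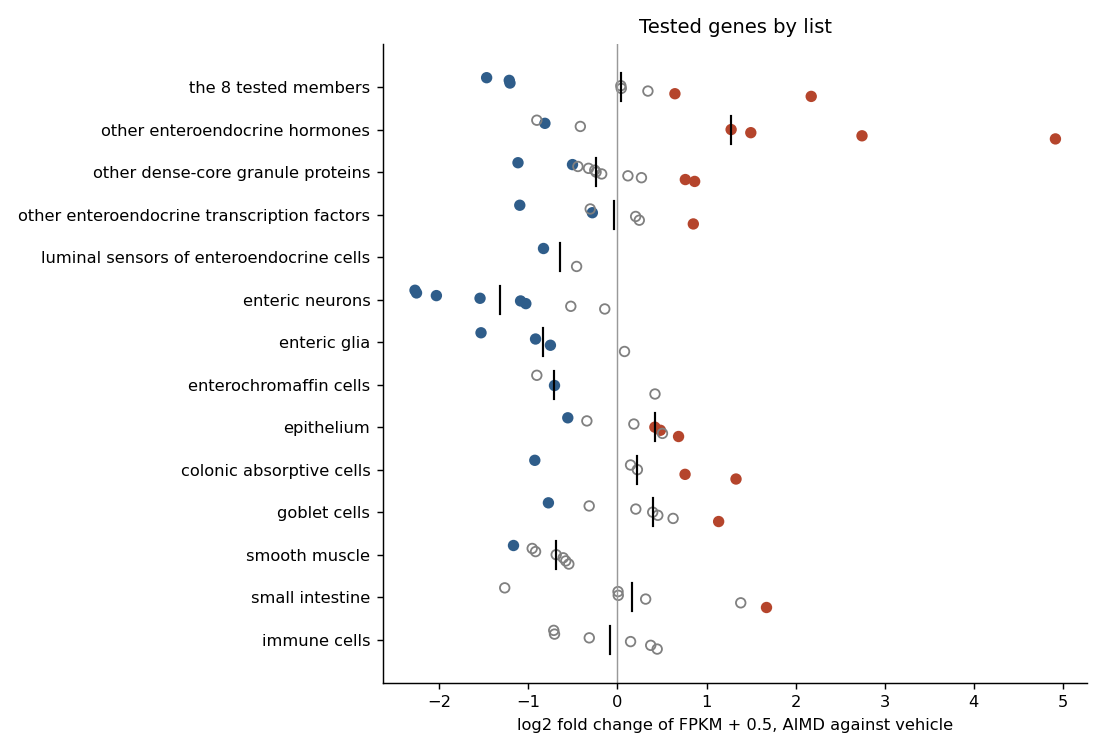
Log2 fold change of FPKM + 0.5, AIMD against vehicle, of the tested genes of each list (1 row per list, points spread vertically for view only); filled red points were called higher and filled blue points lower by limma, open points were not called, and the black tick is the median of the row. The 8 tested genes lie on both sides of 0, 6 of 8 enteric neuron markers are blue with a median of -1.32, and the other hormones have a median of 1.28.

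Markers of other cells moved with the fall of Sst, Scg2 and Cpe. Of 14 enteric neuron markers 8 were tested, and 6 were lower in AIMD mice (Tubb3 by 2.27, Stmn3 by 2.25, Uchl1 by 2.03, Prph by 1.54, Stmn2 by 1.09 and Snap25 by 1.03 on the log2 scale), while Vip (-0.14) and Ret (-0.52) did not pass the test. The median was -1.32, or -1.04 without vehicle replicate 8, with 6 lower again. The summed FPKM of the list was 11.1 to 37.0 in AIMD mice (median 17.8) and 15.8 to 164 in vehicle mice (median 46.7), with 56.8 as the highest value of vehicle replicates 1 to 7. No marker of the list was at 0 in all mice. Among the glial markers, S100b and Gfap had log2 fold changes of -1.53 and -0.92, and Erbb3, also an epithelial gene, had 0.080. S100b and Gfap reached at most 0.389 and 0.43 FPKM in AIMD mice. They thus passed the filter of 0.5 FPKM through vehicle mice alone, which fixed their direction.

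Of 7 smooth muscle genes Tagln alone passed the test, falling by 1.17 (limma adjusted p = 0.00454), and the list summed to 212 to 807 FPKM in AIMD mice and 514 to 3000 in vehicle mice, or at most 1360 without vehicle replicate 8. The epithelial list had 3 genes higher (Krt8 most, by 0.69) and 1 lower (Krt18, -0.56) of 7, and Epcam was not called (0.18). Colonic absorptive cells had 2 higher (Ceacam20 most, by 1.33) and 1 lower (Aqp8, -0.93) of 5, with Car1 not called (0.22). Goblet cells had 1 higher (Tff3, by 1.14) and 1 lower (Muc2, -0.77) of 7, with Zg16 not called (0.21), and immune cells had none called of 6 in limma (Cd79a, -0.71) and 1 higher without vehicle replicate 8. Small-intestine genes gave 1 higher of 6 (Apoa4, by 1.66, with Fabp6 at -1.26 not called) and summed to 18.3 to 351 FPKM in AIMD and 3.91 to 1970 FPKM in vehicle mice, the highest being vehicle replicate 8. Vehicle replicates 5 and 7 had 1100 and 1130 FPKM, and the remaining vehicle mice had at most 80.2 FPKM. Stomach and pancreas genes were near 0, at most 0.316 and 0.744 FPKM summed, and Ins1 and Ins2 had no read.

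Within groups, 3 of the genes followed the neuron markers. Values were centred within each treatment and clock cluster, a score was the mean log2 of the tested markers, and 8 genes against 2 lists gave 16 relations over 15 mice. Scg2 had r = 0.935 with the neuron score (rho = 0.886, exact permutation within clusters, p = 0.000277, adjusted 0.00443), Cpe had r = 0.895 (rho = 0.825, exact permutation p = 0.00102, adjusted 0.00816) and Sst r = 0.825 (rho = 0.807, exact permutation p = 0.00814, adjusted 0.0434). Without the 2 mice farthest from the median score, vehicle replicates 3 and 8, r was 0.867, 0.793 and 0.625. The other 5 genes did not pass, and with smooth muscle no r passed adjustment, the closest being Cpe (r = 0.759) and Chga (r = -0.704, both exact permutation, adjusted 0.0547). Sst and Scg2 also ran with smooth muscle, at r = 0.652 and r = 0.662 (exact permutation, adjusted 0.0635 and 0.0642). By rank, Cpe (rho = 0.779), Chga (rho = -0.771) and Chgb (rho = -0.661) did pass with smooth muscle (exact permutation, adjusted 0.0262, 0.0262 and 0.0408). The part of these markers in the fall of the 3 genes was not tested.

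**Figure D4:**
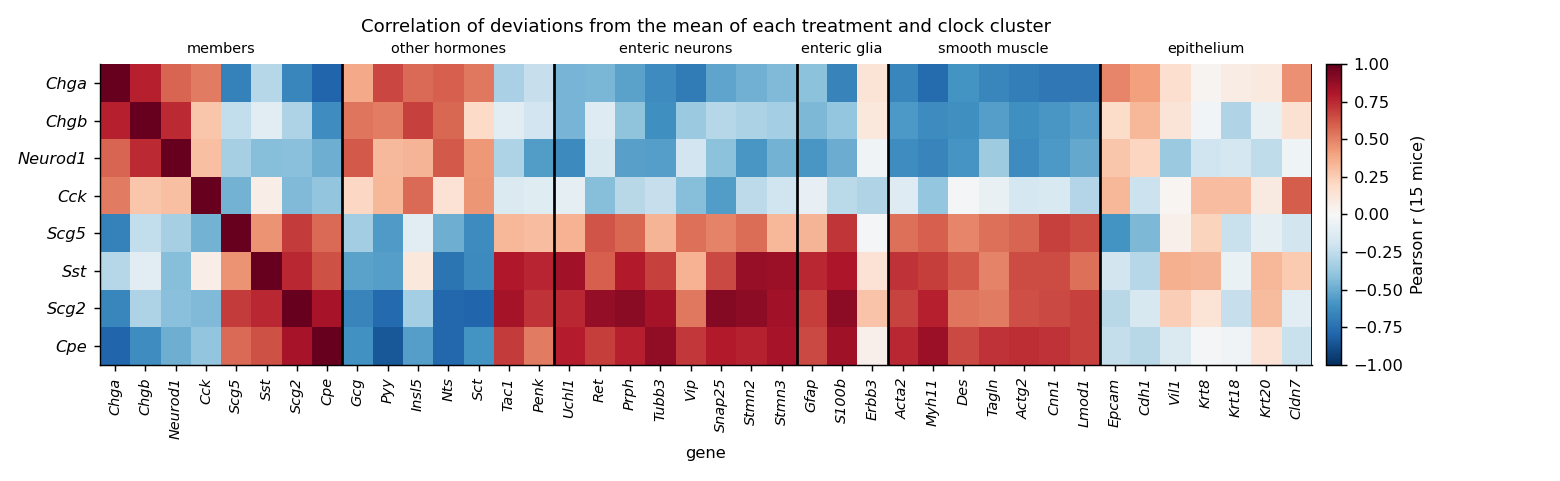
Pearson r over 15 mice, after centring within the 4 cells of treatment and clock cluster, between the 8 tested genes (rows) and themselves, other hormones and cell markers (columns, grouped by black lines); red is positive and blue negative. Sst, Scg2 and Cpe share red with neuron and muscle markers and with glial markers other than Erbb3, and Chga and Chgb share red with each other and with Gcg, Pyy, Insl5 and Nts.

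Among themselves some of the genes ran together and some pairs ran opposite in these centred values. Scg2 ran with Cpe (r = 0.827) and Sst (r = 0.754), and Chga ran with Chgb (r = 0.778), which ran with Neurod1 (r = 0.746). Chga ran against Cpe (r = -0.795) and Scg2 (r = -0.649). Scg5 ran with Scg2 (r = 0.703) and against Chga (r = -0.679). Other pairs were only weakly opposed, such as Sst with Chga (r = -0.285), Sst with Chgb (r = -0.106) and Scg2 with Chgb (r = -0.308). These are descriptions over the same 15 libraries, which share their depth and tissue mix.

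The genes most like each tested gene in the same values, out of 10963, were for Scg2 the vesicle protein Syt4 (r = 0.977), the neurofilament Nefl (r = 0.967) and Rfc1 (r = 0.964). Sst was closest to the synaptic vesicle protein Syp (r = 0.919), Pafah1b2 (r = 0.914) and the serotonin transporter Slc6a4 (r = 0.912). Cpe was closest to Tgfbr3 (r = 0.965), Eml1 (r = 0.963) and Zak (r = 0.955). For Cck, Sdf4 (r = 0.877) and Sycn (r = 0.867) were among the closest 3. Chga was closest to Nmb (r = 0.898), Dhcr7 (r = 0.889) and Ang (r = 0.843), and Chgb to Akr1c18 (r = 0.906), Lgals12 (r = 0.865) and Lmbrd2 (r = 0.847). For Scg5 they were Dapk1 (r = 0.920), Anxa13 (r = 0.916) and Creb3l2 (r = 0.888), and for Neurod1 Tlr4 (r = 0.887), Sytl4 (r = 0.882) and C1galt1c1 (r = 0.881). With values centred by treatment only, all 3 of Chgb's neighbours stayed among its closest 3, 1 stayed for each of Chga and Neurod1, and none for the other 5.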

How the data were processed

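Cecal RNA of 7 AIMD and 8 vehicle mice was sequenced as stranded poly-A libraries. Per the labels, the submitters' processing notes name STAR, featureCounts, DESeq2 and GRCm38, and the authors deposited FPKM per gene symbol, 1 column per mouse, with no pooling. Of 45808 rows, 4 with a repeated symbol were dropped, and 27 hold a date in place of a symbol. The values of all 24279 genes above 0 came out as whole reads (tolerance 0.02 reads), which gave the depth. The GENCODE M21 length did so for 68.06% of them, and for the rest a length was searched that gives whole reads. Low genes rest on few reads. The floors for 0 reads cover counting error only, and the 95% intervals are those of limma, from the spread between mice.

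From the deposited FPKM, each mouse was scaled by a median-of-ratios size factor (13594 genes, 1.01 in every mouse), and log2 was taken after adding 0.5. lmFit and eBayes with a trend (limma 3.58.1, R 4.3.3) were run on 11971 genes (7 or more mice at 0.5 FPKM or more), and an adjusted p (Benjamini-Hochberg) under 0.05 was called. Single genes were also tested by exact permutation over 6435 splits. The study's model had the time of sacrifice, which the labels do not give, and the main fit here had treatment as its only factor. Clusters of clock genes stood in for that time in the fits within clusters, the interaction and the centred values. Tables and figures were made in Python 3.11.15 (scipy 1.17.1, numpy 2.4.6, matplotlib 3.10.9, pandas 2.3.3). The fits and the recovery of reads were tested on simulated data.

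The 10 genes and all lists were chosen with earlier results of these data known. All 10 are named, and each list is counted in full with its most abundant tested gene, its largest called rise and fall, and up to 4 genes in full; further genes of the neuron, hormone and granule lists were named after their values were seen. The 3 closest genes per tested gene leave out predicted genes. A few genes that these rules select are counted but not reported here. Positions are those of GENCODE M21. Alternatives were other scalings, pseudocounts, filters, thresholds, an exact rank-sum test, limma voom on the recovered reads, a replicate block, clock scores as covariates, each clock cluster alone and each mouse left out.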

Additional observations from a re-analysis of the deposited data

Results flagged for a closer look

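By Dixon's test on FPKM, without log2, a single mouse stood far from the rest of its group in 5 of 20 groups examined (10 genes in each treatment). The test flags about 1 group in 20 by chance where values are normally distributed and groups are independent. FPKM values need not be so, and the flags of vehicle replicate 8 come from 1 library and from genes that ran together. Vehicle replicate 8 stood high for Sst (43.8 FPKM), Scg2 (27.8 FPKM) and Cpe (253 FPKM), and the highest values of the other vehicle mice were 20.8, 9.53 and 95.3. This mouse also had the highest summed neuron markers (164 FPKM) and the lowest depth. Chga stood high in AIMD replicate 4 (17.4 FPKM), and Neurod1 in vehicle replicate 5 (1.83 FPKM, from 26 reads). The part of depth and tissue mix in these values was not tested.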

How the results depend on the processing

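Of 11971 genes 4315 were called with all mice, and 2477 in the higher clock cluster alone, 1883 in the lower one, 2481 at an adjusted p under 0.01 and 765 at a log2 fold change of at least 1. The count of genes of the set called higher, 2, fell to 1 (Cck) under the exact rank-sum test, in the higher clock cluster, at an adjusted p under 0.01 and at a fold change of at least 1, and in the lower cluster the 2 were Cck and Scg5. The count called lower, 3, was 0 in the lower clock cluster (limma, with Cpe alone at an unadjusted p under 0.05), 1 (Cpe) at an adjusted p under 0.01 and 2 under the rank-sum test. The clusters hold fewer mice. Cck was called in all 30 alternatives, with 1.88 to 2.53. With each mouse left out in turn, Sst stayed between -1.74 and -1.17, Scg2 between -1.42 and -0.92, Cpe between -1.38 and -0.98 and Chgb between 0.56 and 0.75, all called, with 3551 to 4638 genes called in all.

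Values near 0 changed sign. Chga, at 0.043, was -0.0075 in the higher clock cluster and, with 1 mouse left out, -0.064 (without vehicle replicate 4), -0.046 (without AIMD replicate 4) and -0.012 (without vehicle replicate 8) to 0.101. Neurod1, at 0.038, was -0.038 in the higher cluster and, in the same order, -0.030, -0.0051 and -0.0092 to 0.183. Scg5, at 0.34, was -0.042 in the higher cluster. None of these values was called, and the cause was not tested.

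Replicate numbers name different mice. Deviations of same-numbered mice correlated by -0.35 to 0.432, so the numbers were not taken as pairs. A replicate block on replicates 1 to 7 gave 4646 calls (4638 without the block, chosen after seeing the data). With the block Scg5 was called higher at 0.48 (limma adjusted p = 0.0289), which made 3 called higher, and Chga was -0.012 and Neurod1 -0.0092, as in the same mice without it. Depth limits Ghrl and Neurog3.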
